A study of Homo sapiens with 6 samples.

Results

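Translation initiation is carried out by the eukaryotic initiation factors (eIFs), and their mRNAs were followed in MDA-MB-231 cells treated with DSF/Cu. The set was defined by name: every gene of the deposited table whose symbol began with EIF and a digit from 1 to 6 and whose transcripts included a protein-coding one, leaving out hyphenated read-through names and 2 further genes not analysed here. It held 54 of the 58825 genes in the table, and the rule itself used no measured value, although earlier results of these data were known when the set was chosen. MDA-MB-231 is an established cell line from a human breast cancer of the triple-negative type. One group received DSF/Cu, disulfiram given with copper, at 0.2 µM for 24 h, and the other received the vehicle DMSO for the same 24 h, with 3 repeats in each group and the cells of 3 wells pooled into each repeat. Disulfiram alone and copper alone were not among the groups, so the effects of the 2 agents cannot be told apart. The labels name 1 cell line and do not say whether the repeats were grown on separate days, so the p-values below measure only the spread between these libraries, which may be technical.

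Initiation begins when eIF2, loaded with GTP and the initiator tRNA, joins the small ribosomal subunit together with eIF1, eIF1A, eIF3 and eIF5. The eIF4F complex binds the cap of an mRNA and brings it to this assembly, which then scans for a start codon. Stress is signalled to this pathway mainly through the alpha subunit of eIF2: kinases such as HRI, PKR and GCN2 phosphorylate it, phosphorylated eIF2 holds back its own exchange factor eIF2B, and general initiation slows while some mRNAs, ATF4 among them, are translated better. A second control acts on the cap, where mTORC1 phosphorylates the eIF4E-binding proteins and so frees eIF4E. Only mRNA levels were measured here, not phosphorylation or protein.

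Libraries held between 55563223 and 61633168 counts in DSF/Cu and between 62165212 and 70883177 counts in DMSO. The factors took 1.192% to 1.229% of all counts in DSF/Cu libraries and 1.299% to 1.337% in DMSO libraries. Levels are CPM (counts scaled to the library's size) after TMM scaling unless FPKM is named, and changes are log2 fold changes of DSF/Cu over DMSO with their standard error (SE), n = 3 libraries in each group. A gene was called higher or lower when the Benjamini-Hochberg adjusted p of edgeR's two-sided quasi-likelihood test, over the 18229 genes tested, was under 0.05. The 5 genes expected in this line (VIM, CD44, KRT18, EGFR and AXL) lay between 15.05 and 610.4 FPKM in every library. ESR1, PGR, ERBB2 and CDH1, expected to be low, stayed at or under 6.57 FPKM. Of 7 markers of other cell types, the immune gene CD3E, the endothelial gene CDH5 and the adipocyte gene ADIPOQ had 0 counts in every library, which allows up to 3 counts, or 0.0394 to 0.0567 CPM, per library. PTPRC and ALB had 0 to 12 counts per library and PECAM1 had 19 to 56, all at or under 0.0996 FPKM. CD68 was far above these, at 46.5 to 64.1 FPKM in DSF/Cu and 38.96 to 76.4 FPKM in DMSO. Over all genes no library stood apart from its group: pairs of libraries from 1 group correlated across genes at 0.965 to 0.975 on the log scale, and pairs from both groups at 0.927 to 0.935. In bulk RNA a lower level in each cell and fewer cells that express a gene cannot be told apart.

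Of the 54 genes, 51 had enough counts to be tested. After DSF/Cu, 12 of the 51 were higher (23.5%, beside 18.5% of all genes tested) and 7 were lower (13.7%, beside 16.8% of all genes tested), while 32 were not called (35.2% of all genes were called in either direction). Shares this close to those of all genes give no result for the factors as one set. By complex, all 7 called subunits of eIF3 were higher, both called eIF2 kinases were lower, and both called members of the eIF4F group were lower. The 12 higher genes were EIF3F, EIF3H, EIF1B, EIF3L, EIF3G, EIF3E, EIF3I, EIF3M, EIF1AD, EIF2B2, EIF5A2 and EIF4ENIF1, with log2 fold changes between 0.30 and 0.84. The 7 lower genes were EIF2AK2, EIF4G3, EIF2AK4, EIF4G1, EIF4EBP2, EIF1AX and EIF6, with log2 fold changes between -0.37 and -0.21. The median over the 51 was 0.06 on the log2 scale, beside 0.002 over all genes tested, and the DSF/Cu and DMSO libraries did not overlap for 18 higher genes (26% of all genes did so) and for 12 lower ones (25.2% of all genes). The split of the calls depends on the scaling of the libraries: with total counts in place of TMM factors, 6 of the 51 were higher (12.9% of all genes) and 18 lower (26.6% of all genes), with a median of -0.12 over the 51 and of -0.18 over all genes tested. In limma on FPKM 6 were higher (15.6% of all genes) and 17 lower (37.7% of all genes with a pseudocount of 1, 37.3% with 0.1), and DESeq2 called 18 higher (24% of all genes) and 11 lower (21.7% of all genes). Of the 19 called genes, 8 were called under every alternative that was run: EIF1B, EIF2AK4, EIF3E, EIF3F, EIF3H, EIF3I, EIF3L and EIF4G3.

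**Figure D1:**
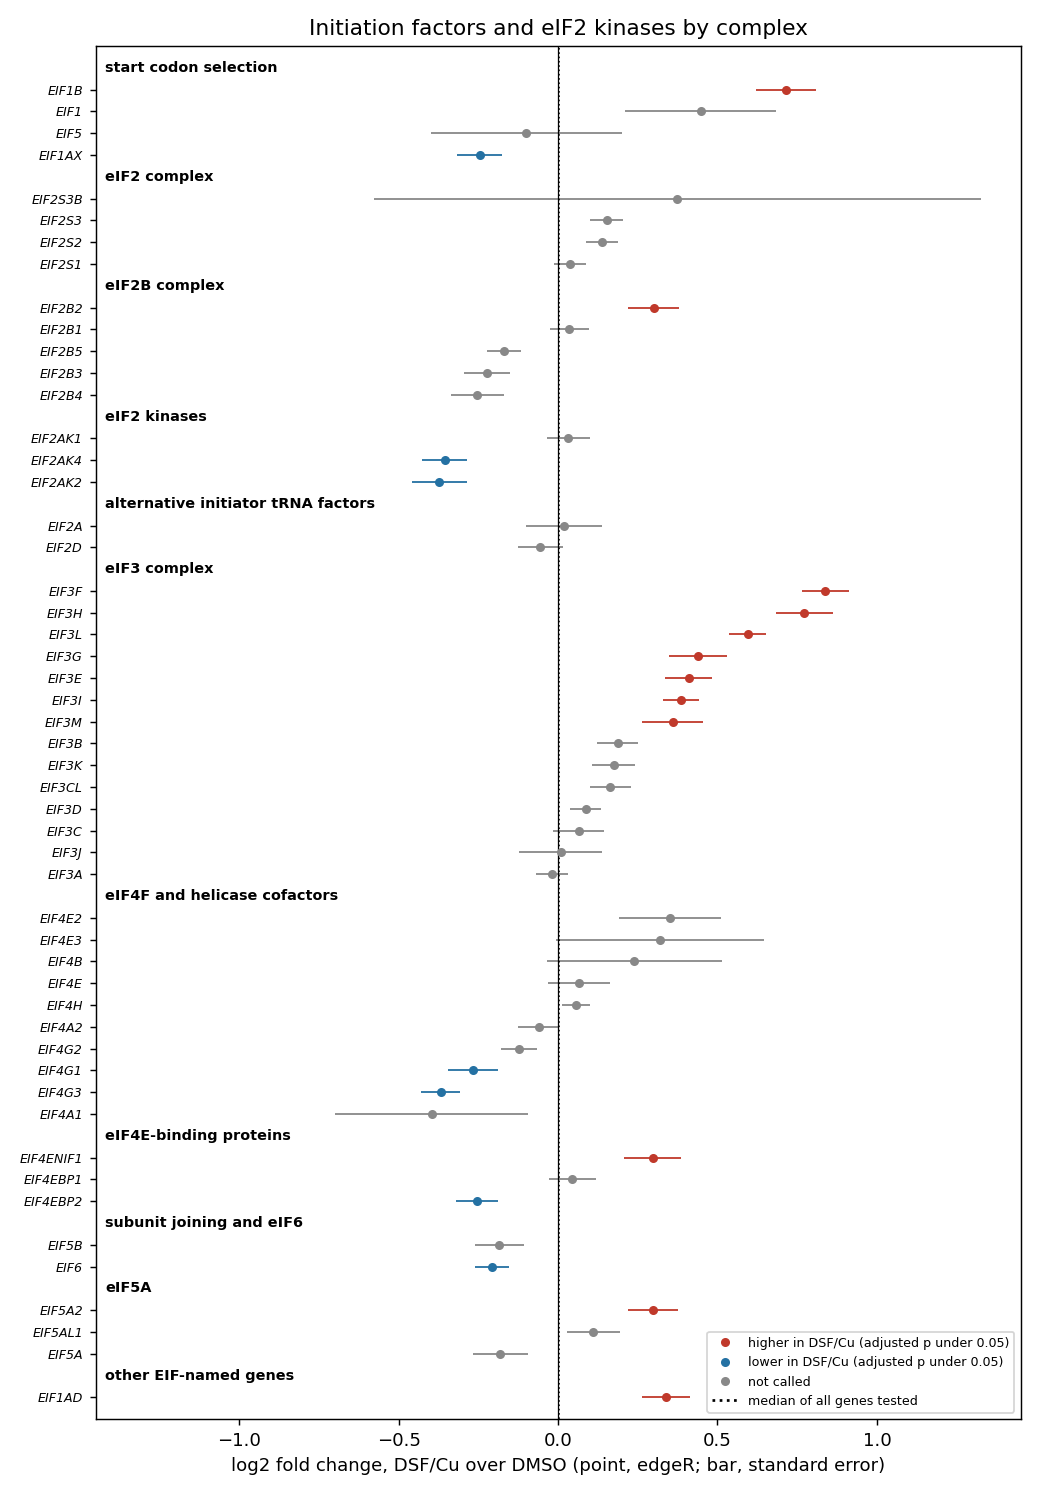
Log2 fold change of DSF/Cu over DMSO for the 51 tested initiation factor genes, grouped by complex, with bars for ± 1 SE (3 libraries in each group) and colour for the call at an edgeR adjusted p under 0.05. All 7 called eIF3 subunits lie right of 0, with EIF3F at 0.84 and EIF3H at 0.77, and the called eIF2 kinases EIF2AK2 and EIF2AK4 lie left of it.

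The eIF3 complex, the scaffold on the small subunit that holds the other factors and the mRNA, held the most called genes. Of its 14 genes, all tested, 7 were higher, 0 were lower and 7 were not called (50% higher, beside 18.5% of all genes). The median log2 fold change was 0.27, and for 11 of the 14 every DSF/Cu library lay above every DMSO library (26% of all genes). Without TMM factors these values were smaller: the median was 0.0865 with total counts and 0.0989 or 0.102 in limma on FPKM (pseudocount 1 or 0.1), and each of these fits called 5 of the genes higher and 1 lower, EIF3A at -0.20 with total counts. The median of all genes fell too, from 0.002 to -0.182 with total counts and -0.167 or -0.2 with FPKM. Of all genes, 12.9% were higher and 26.6% lower with total counts, and 15.6% higher and 37.7% or 37.3% lower with FPKM. The 2 subunits with an MPN domain, EIF3F and EIF3H, which sit side by side in the complex, had the largest changes of the 14.

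EIF3F, at chr11:7970251-8001862 of GRCh38, had 285, 317 and 265 CPM in the DSF/Cu libraries, against 162, 164 and 158 CPM in the DMSO libraries. All DSF/Cu libraries were far above all DMSO libraries, a 1.79-fold difference (log2 0.84 ± 0.07, edgeR adjusted p = 4.31e-04). EIF3FP3, its pseudogene copy, was also higher (0.87 ± 0.07, edgeR adjusted p = 3.96e-04), though how reads were split between them is not known, and with the counts of both summed the change was 0.84 ± 0.07. EIF3H, on chromosome 8, had 416, 420.0 and 406 CPM in the DSF/Cu libraries, against 235, 275 and 218 CPM in the DMSO libraries. The DSF/Cu libraries were close to each other and clear of the DMSO libraries, 1.71-fold higher (log2 0.77 ± 0.09, edgeR adjusted p = 0.00107). UTP23 overlaps EIF3H on the opposite strand and has 11.4% as many counts, and its own change was 0.05 ± 0.10.

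The PCI-domain subunits build the body of eIF3 around that pair, and they did not move as one. EIF3L had 389, 379 and 370.4 CPM in the DSF/Cu libraries, against 266, 252 and 236 CPM in the DMSO libraries. Its groups did not overlap (log2 0.59 ± 0.06, edgeR adjusted p = 5.92e-04). EIF3E was higher by 0.41 ± 0.07 and EIF3M by 0.36 ± 0.09 on the log2 scale. The call for EIF3M was lost under 8 of 13 alternatives, among them those without DSF/Cu replicate 1 or 3 or DMSO replicate 2 or 3, with adjusted p up to 0.214, that for EIF3E under none. EIF3K (0.17, edgeR adjusted p = 0.0904) was not called although its groups did not overlap. EIF3A, the largest subunit and the one that spans the complex, had 537 ± 24.8 CPM in DSF/Cu and 544 ± 15.4 CPM in DMSO, a difference of -0.02 ± 0.05 that was within the spread of the libraries.

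EIF3C and EIF3CL, neighbours on chromosome 16, have coding sequences with 0 mismatches over 2745 aligned positions (99.9% identity), so their counts are uncertain as split between them. EIF3C had a log2 fold change of 0.06 ± 0.08 and EIF3CL one of 0.16 ± 0.06, neither called. Summed, the pair had 587 ± 35.6 CPM in DSF/Cu and 542 ± 24.2 CPM in DMSO (0.11 ± 0.06, edgeR adjusted p = 0.195).

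EIF3G and EIF3I, which with EIF3B form the part of eIF3 that lies on the other face of the small subunit, were both higher. EIF3G was higher by 0.44 ± 0.09 and EIF3I by 0.39 ± 0.06 (edgeR adjusted p = 0.00301). Under total-count scaling and in both FPKM fits EIF3G was not called, with adjusted p up to 0.0724. EIF3B missed the threshold at 0.19 ± 0.06 (edgeR adjusted p = 0.0621), although its lowest DSF/Cu library, at 498 CPM, was above its highest DMSO library, at 482 CPM. EIF3D, the subunit that can itself bind a cap, was at 0.09 ± 0.05, and EIF3J, a loosely held subunit, was at 0.01 ± 0.13 with DSF/Cu replicate 2 well above its fellows (79.5, 109.6 and 81.6 CPM in DSF/Cu, against 92.4, 84.7 and 92.0 CPM in DMSO).

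**Figure D2:**
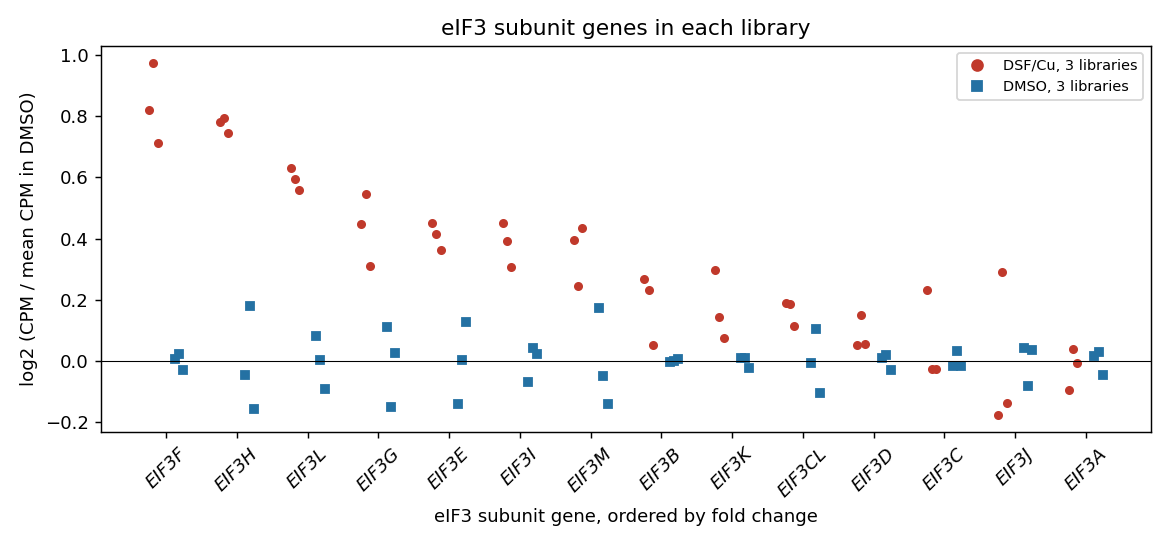
Log2 of CPM over the mean CPM in DMSO for the eIF3 subunits, with a point for each library and DSF/Cu left of DMSO. For EIF3F, EIF3H and EIF3L all 3 DSF/Cu points lie above all 3 DMSO points, while those of EIF3A and EIF3J overlap.

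Many mRNAs of the translation machinery begin with a C followed by a run of pyrimidines, the TOP element through which mTORC1 and LARP1 act on their translation. The start regions of the eIF3 genes that were higher and had an entry in the RefSeq promoter table are therefore shown, as 60 bases before and 20 from the table's start nearest the gene's 5′ end on GRCh38.p14, with such a run in capitals.
EIF3F: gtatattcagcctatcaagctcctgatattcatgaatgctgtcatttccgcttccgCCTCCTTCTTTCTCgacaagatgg
EIF3M: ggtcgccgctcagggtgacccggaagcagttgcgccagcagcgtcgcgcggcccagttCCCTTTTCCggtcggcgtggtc
EIF3I: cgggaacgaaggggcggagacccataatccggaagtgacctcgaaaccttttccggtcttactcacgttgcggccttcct
The EIF3F stretch (chr11:7987277-7987356, plus strand) has a run of 14 pyrimidines beginning 4 bases before the start, and the EIF3M stretch (chr11:32583771-32583850, plus strand) has a run of 9 beginning 2 bases before it. In the EIF3I stretch (chr1:32222347-32222426, plus strand) none begins within 5 bases of the start. Searched as a C followed by at least 4 bases that are C or T, on the gene's own strand and within 5 bases of the start, the run was found for 17 of the 45 factors with an entry (37.8%) and for 21.1% of all 35116 promoters in the table. It was found for 3 of the 8 called higher genes with an entry (EIF3F, EIF3M and EIF5A2) and for 1 of the 7 called lower ones (EIF4EBP2). EIF2AK1, EIF2S2, EIF3A, EIF3CL, EIF3E, EIF3G, EIF3H, EIF3L and EIF4EBP1 had no entry. The factors count 1 start per gene, while the 35116 promoters count every entry, of which a gene may have several, so these shares differ in unit.

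The factors that pick the start codon split. EIF1, which keeps the scanning ribosome from stopping at a wrong codon, had 900.1, 466 and 862 CPM in the DSF/Cu libraries, against 503, 569 and 562 CPM in the DMSO libraries. DSF/Cu replicate 2 lay below all 3 DMSO libraries and the other DSF/Cu libraries far above them, so the difference of 0.45 ± 0.24 was not called (edgeR adjusted p = 0.195), and it was 0.70 with an edgeR adjusted p of 0.00292 when that library was left out. EIF1B, its close paralogue with 82.2% identity over the coding sequence, had 62.3, 57.2 and 55.98 CPM in the DSF/Cu libraries, against 31.5, 37.7 and 37.7 CPM in the DMSO libraries. All 3 DSF/Cu libraries were higher, by 1.64-fold (log2 0.71 ± 0.09, edgeR adjusted p = 0.00193).

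EIF1AX, the X-linked gene for eIF1A, which works with eIF1 in scanning, was lower. Its level was 81.2, 90.7 and 81.6 CPM in the DSF/Cu libraries, against 95.3, 106 and 99.3 CPM in the DMSO libraries. The groups came close without overlapping (-0.25 ± 0.07, edgeR adjusted p = 0.0369), and the call was lost when DSF/Cu replicate 1 or 3 or DMSO replicate 2 or 3 was left out, with edgeR adjusted p up to 0.109. EIF1AY, the Y-linked copy, had too few counts for a test. EIF5, which makes eIF2 hydrolyse its GTP once the start codon is found, had 242, 302 and 273 CPM in the DSF/Cu libraries, against 439, 252 and 185 CPM in the DMSO libraries. DMSO replicate 1 was the highest and DMSO replicate 3 the lowest of all 6, and the difference of -0.10 ± 0.30 was far within that spread (edgeR adjusted p = 0.83).

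With TMM factors edgeR called 0 of the 4 genes for eIF2 itself, and 2 of the 4 had an unadjusted p under 0.05 (44.7% of all genes did). Other fits made 1 or 2 calls among them, given below with the gene. EIF2S1, the alpha subunit on which the stress kinases act, had 306, 299.6 and 306 CPM in the DSF/Cu libraries, against 281, 307 and 299.6 CPM in the DMSO libraries. The groups overlapped, with a difference of 0.04 ± 0.05 (edgeR adjusted p = 0.598). Under total-count scaling the sign turned to -0.15, with an edgeR adjusted p of 0.0497. The stretch of its coding sequence around the phosphorylated serine, codon 52 with the start codon as 1, is shown with that codon in capitals, because it is the point on which the kinases and phosphatases described next converge (chr14:67364900-67364944, GRCh38, plus strand, GENCODE 29).
EIF2S1: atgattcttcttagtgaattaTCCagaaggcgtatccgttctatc
EIF2S2, the beta subunit, was at 0.14 ± 0.05 (edgeR adjusted p = 0.074) and EIF2S3, the gamma subunit that carries GTP and the initiator tRNA, at 0.15 ± 0.05 (edgeR adjusted p = 0.0598). For both, every DSF/Cu library was above every DMSO library, and DESeq2 called both higher, with adjusted p of 0.00537 for EIF2S2 and 0.0019 for EIF2S3. With RLE size factors edgeR also called EIF2S3 higher (0.17, adjusted p = 0.0464). EIF2S3B, a retrocopy of EIF2S3 with 98.2% identity, had 0.473 to 6.65 CPM in DSF/Cu and 0.695 to 4.48 CPM in DMSO. The sum of both gamma genes changed by 0.16 ± 0.06 (edgeR adjusted p = 0.0788).

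Of the 5 eIF2B genes, which encode the exchange factor that recharges eIF2, 1 was called, as higher (20%, beside 18.5% of all genes). EIF2B2, the beta subunit of the regulatory part, had 95.5, 80.5 and 87.8 CPM in the DSF/Cu libraries, against 73.6, 73.4 and 67.2 CPM in the DMSO libraries. The groups did not overlap (0.30 ± 0.08, edgeR adjusted p = 0.0284), but 10 of 13 alternatives lost this call, with adjusted p up to 0.292, among them the fits without any 1 library other than DSF/Cu replicate 2. EIF2B3, EIF2B4 and EIF2B5 were not called. Their log2 fold changes were -0.22 ± 0.07 for EIF2B3 (gamma), -0.25 ± 0.08 for EIF2B4 (delta) and -0.17 ± 0.05 for EIF2B5, the catalytic epsilon subunit, with every DSF/Cu library under every DMSO library. Their edgeR adjusted p of 0.0518, 0.0549 and 0.051 lay just past the threshold, and DESeq2, total-count scaling and both FPKM fits called 3 eIF2B genes lower. Of all genes, DESeq2 called 21.7% lower, total-count scaling 26.6%, and the FPKM fits 37.7% (pseudocount 1) or 37.3% (pseudocount 0.1). EIF2B1 (alpha) was at 0.04 ± 0.06.

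Of the 3 eIF2 kinase genes, those for PKR and GCN2 were lower (66.7%, beside 16.8% of all genes) and that for HRI was not called. EIF2AK2 encodes PKR, which is activated by double-stranded RNA and induced by interferon. It had 60.96, 74.8 and 70.8 CPM in the DSF/Cu libraries, against 91.4, 85.7 and 90.2 CPM in the DMSO libraries. All DSF/Cu libraries were under all DMSO libraries, 1.29-fold lower (log2 -0.37 ± 0.09, edgeR adjusted p = 0.0166). With DMSO replicate 1 or 3 left out the call was lost, at edgeR adjusted p up to 0.0522. GPATCH11 overlaps it on the opposite strand, with 36.1% as many counts, and was higher by 0.50 ± 0.11. EIF2AK4 encodes GCN2, which senses uncharged tRNA and stalled ribosomes. It had 98.9, 114 and 113 CPM in the DSF/Cu libraries, against 138, 139 and 141 CPM in the DMSO libraries. Here the DMSO libraries were within 4 CPM of each other and the DSF/Cu libraries all lay under them, 1.28-fold lower (log2 -0.36 ± 0.07, edgeR adjusted p = 0.00901). EIF2AK1, the gene for HRI, which is held in check by haem and also relays mitochondrial stress, had 159, 157 and 178 CPM in the DSF/Cu libraries, against 154, 167 and 162 CPM in the DMSO libraries. These overlapped, with a difference of 0.03 ± 0.07 (edgeR adjusted p = 0.754).

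The start regions of both called kinase genes are set side by side, since the interferon-stimulated response element of EIF2AK2 is a known control of that gene. A match to GAAANNGAAA is in capitals.
EIF2AK2: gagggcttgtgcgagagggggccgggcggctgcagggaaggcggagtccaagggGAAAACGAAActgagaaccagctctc
EIF2AK4: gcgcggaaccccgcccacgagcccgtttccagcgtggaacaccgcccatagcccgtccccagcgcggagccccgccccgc
The EIF2AK2 stretch (chr2:37156961-37157040, minus strand) holds the match across the start, and the EIF2AK4 stretch (chr15:39934055-39934134, plus strand) has none. Over promoters of 300 bases and on both strands, GAAANNGAAA was found for 5 of the 45 factors (11.1%) and for 3.57% of all promoters. The stress elements searched alike were TGATGNAA, the site of ATF4 with C/EBP, for 0 of 45 (3.62% of all), TGACNNNGC, the antioxidant response element, for 10 of 45 (22.2%, and 13.3% of all), and TGCNCNC, the core of the metal response element, for 29 of 45 (64.4%, and 55.9% of all). The heat shock element was found for 0 of 45 (0.49% of all). Matches of different elements may share letters, and a match is only a description of these bases.

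Genes that set the activity of the kinases and undo their work are named in a list of 13 regulators, of which 4 were higher (30.8%, beside 18.5% of all genes) and 3 lower (23.1%, beside 16.8% of all genes). PPP1R15A (GADD34), the stress-induced subunit that brings protein phosphatase 1 to eIF2 alpha, had 1879.9, 1646 and 1471 CPM in the DSF/Cu libraries, against 265, 259.9 and 244 CPM in the DMSO libraries. This 6.497-fold difference (log2 2.70 ± 0.10, edgeR adjusted p = 2.35e-05) was larger than that of any initiation factor. Its constitutive relative PPP1R15B was 1.88-fold higher (0.91 ± 0.05, edgeR adjusted p = 1.13e-04). DNAJC3 (p58IPK), an inhibitor of eIF2 kinases, was 1.897-fold higher (0.92 ± 0.06, edgeR adjusted p = 1.78e-04), and the catalytic subunit PPP1CB was higher by 0.31 ± 0.07.

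Both listed genes that act on GCN2 were lower. GCN1, the ribosome-bound partner that GCN2 needs, had 223, 214 and 213 CPM in the DSF/Cu libraries, against 304, 273 and 272 CPM in the DMSO libraries. It was 1.31-fold lower without overlap (-0.39 ± 0.06, edgeR adjusted p = 0.00362). IMPACT, which competes with GCN2 for GCN1, was lower at 8.85, 11.2 and 8.89 CPM in the DSF/Cu libraries, against 17.3, 16.6 and 16.4 CPM in the DMSO libraries, 1.74-fold (-0.80 ± 0.13, edgeR adjusted p = 0.00391). The catalytic subunit PPP1CC was lower at -0.20 ± 0.06, a call lost without DSF/Cu replicate 1 or 3 or DMSO replicate 2 or 3 (edgeR adjusted p up to 0.121), and its relative PPP1CA was not called at -0.38 ± 0.14. DELE1 and OMA1, which relay mitochondrial stress to HRI, were at 0.17 ± 0.07 and -0.41 ± 0.16, not called. The PKR regulators PRKRA and TARBP2 and the adaptor NCK1 were not called, with log2 fold changes between -0.27 and 0.01.

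**Figure D3:**
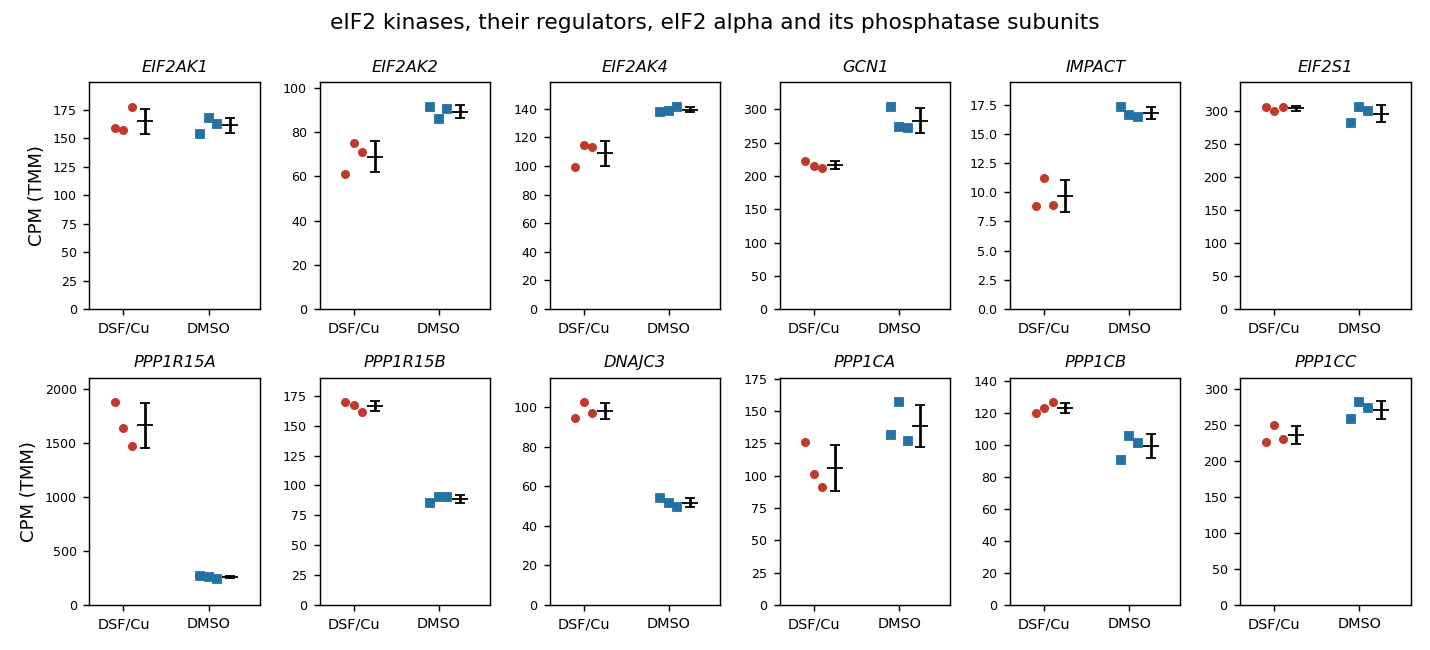
CPM of the eIF2 kinases, GCN1, IMPACT, EIF2S1, DNAJC3 and the phosphatase 1 subunits in each library, DSF/Cu left of DMSO, with bars for the mean ± SD of 3 libraries. PPP1R15A averaged 1666 CPM in DSF/Cu and 256.4 CPM in DMSO, EIF2AK2, EIF2AK4, GCN1 and IMPACT were lower in all 3 DSF/Cu libraries, and EIF2AK1 and EIF2S1 overlapped.

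In the eIF4F group, which reads the cap and unwinds the mRNA, 2 of the 3 eIF4G scaffold genes were lower and the cap-binding genes were not called. Of 10 tested genes 0 were higher and 2 lower (20% lower, beside 16.8% of all genes), while total-count scaling and both FPKM fits called 5 lower. Of all genes, 26.6% were lower with total counts and 37.7% (pseudocount 1) or 37.3% (pseudocount 0.1) in the FPKM fits. EIF4G1, the main scaffold that joins eIF4E, eIF4A and eIF3, had 735, 884 and 757 CPM in the DSF/Cu libraries, against 926, 996 and 935 CPM in the DMSO libraries. The groups did not overlap (1.202-fold lower, log2 -0.27 ± 0.08, edgeR adjusted p = 0.0384), but the call was lost in 5 of the 6 fits that left out 1 library (all but the one without DSF/Cu replicate 2), with edgeR adjusted p of up to 0.113. EIF4G3, its paralogue, had 77.9, 82.9 and 79.6 CPM in the DSF/Cu libraries, against 109.5, 101 and 99.96 CPM in the DMSO libraries. It was 1.29-fold lower (log2 -0.37 ± 0.06, edgeR adjusted p = 0.00472), under every alternative that was run. EIF4G2 (DAP5), which lacks the eIF4E site, was at -0.12 ± 0.06 (edgeR adjusted p = 0.147) and not called, with no overlap of the groups.

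EIF4E, the cap-binding subunit, had 80.8, 104 and 89.2 CPM in the DSF/Cu libraries, against 84.6, 88.01 and 88.97 CPM in the DMSO libraries. The DMSO values fell inside the range of the DSF/Cu values (0.07 ± 0.10, edgeR adjusted p = 0.643). EIF4E2 (4EHP), which binds caps without recruiting eIF4G, was at 0.35 ± 0.16 (edgeR adjusted p = 0.138), and DESeq2 called it higher, with an adjusted p of 0.0311. EIF4E3 was low at 1.23 ± 0.119 CPM in DSF/Cu and 0.987 ± 0.344 CPM in DMSO, and EIF4E1B had 0 counts in every library. The helicase EIF4A2 was at -0.06 ± 0.06. Of the helicase cofactors, EIF4H was at 0.06 ± 0.04, and EIF4B had 300.2, 223 and 358 CPM in the DSF/Cu libraries, against 159.6, 313 and 273 CPM in the DMSO libraries. The lowest and the highest of these 6 EIF4B values were DMSO replicate 1 and DSF/Cu replicate 3, and no difference could be called (0.24 ± 0.27, edgeR adjusted p = 0.551). EIF4H was called lower under total-count scaling and in both FPKM fits.

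EIF4A1, the main helicase, at chr17:7572706-7578631 of GRCh38, shares its bases with other annotated genes, and its own counts were spread widely. It had 377, 590.3 and 494 CPM in the DSF/Cu libraries, against 373, 759 and 792 CPM in the DMSO libraries. Both groups overlapped. SENP3-EIF4A1, an annotated read-through gene over the same bases, had 173, 135 and 154 CPM in the DSF/Cu libraries, against 486, 46.3 and 0 CPM in the DMSO libraries. DMSO replicate 1 was the lowest of the DMSO libraries for EIF4A1 and the highest of all 6 for the read-through gene, which had 0 counts in DMSO replicate 3. The overlapping gene AC016876 had 195 CPM in DSF/Cu replicate 1, against 32.0 to 54.7 CPM in the other 5 libraries. EIF4A1 alone changed by -0.40 ± 0.30 (edgeR adjusted p = 0.362). Without DMSO replicate 1 this was -0.674, with an edgeR adjusted p of 0.0437. With the counts of the 3 genes summed, chosen after these values were seen, the locus had 745, 760.5 and 680.2 CPM in the DSF/Cu libraries, against 903, 859.5 and 832 CPM in the DMSO libraries. The summed values no longer overlapped, at a difference of -0.25 ± 0.06 (edgeR adjusted p = 0.0174). Adding the upstream gene SENP3 gave -0.23 ± 0.05.

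**Figure D4:**
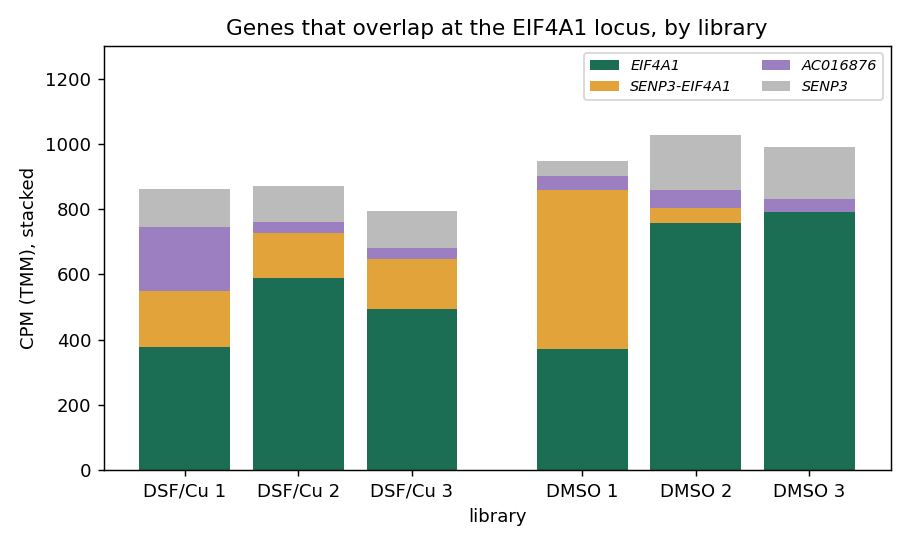
Stacked CPM of EIF4A1, SENP3-EIF4A1, AC016876 and SENP3 in each library, DSF/Cu left of DMSO. The shares of the genes differ between libraries of one group, with 0 for SENP3-EIF4A1 in DMSO replicate 3, while the 4 genes together average 842 CPM in DSF/Cu and 988 CPM in DMSO.

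The eIF4E-binding proteins keep eIF4E from eIF4G. EIF4EBP1, the best-studied target of mTORC1 among them, had 108, 94.8 and 92.9 CPM in the DSF/Cu libraries, against 98.3, 94.3 and 93.95 CPM in the DMSO libraries. These values overlapped (0.05 ± 0.07, edgeR adjusted p = 0.675). EIF4EBP2 had 95.01, 95.3 and 101 CPM in the DSF/Cu libraries, against 122, 108 and 117 CPM in the DMSO libraries. All DSF/Cu values were under all DMSO values (-0.25 ± 0.07, edgeR adjusted p = 0.0253), a call that 5 of 13 alternatives lost, among them the fits without DSF/Cu replicate 1 or 2 or DMSO replicate 1 or 3, with adjusted p up to 0.0831. EIF4ENIF1 (4E-T), which carries eIF4E into the nucleus and processing bodies, had 20.7, 21.6 and 22.98 CPM in the DSF/Cu libraries, against 16.6, 18.4 and 18.2 CPM in the DMSO libraries. It was higher by 0.30 ± 0.09 (edgeR adjusted p = 0.0415), a call that 11 of 13 alternatives lost, the fits without any 1 library among them, with adjusted p up to 0.398. DRG1 and SFI1 overlap it on the opposite strand with 385% and 63% as many counts. EIF4EBP3 had 0 to 3 counts per library and was not tested. The read-through gene ANKHD1-EIF4EBP3 overlaps it on the same strand, so how reads were split between them is not known. Summed, they had 63.4 ± 6.28 CPM in DSF/Cu and 57.5 ± 4.17 CPM in DMSO (0.14 ± 0.09, edgeR adjusted p = 0.301).

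Of the 2 factors for subunit joining and for the large subunit, EIF6 was lower and EIF5B was not called. EIF5B, the GTPase that joins the subunits, was at -0.18 ± 0.08 (edgeR adjusted p = 0.108) and not called. EIF6, which keeps the large subunit from joining too early and acts in its assembly, had 256, 234 and 235 CPM in the DSF/Cu libraries, against 273, 284 and 280.2 CPM in the DMSO libraries. It was 1.15-fold lower without overlap (log2 -0.21 ± 0.05, edgeR adjusted p = 0.0253), and the call was lost when DSF/Cu replicate 2 or 3 or DMSO replicate 2 or 3 was left out, with adjusted p up to 0.0898. EIF2A and EIF2D, which can deliver initiator tRNA without eIF2, were at 0.02 ± 0.12 and -0.05 ± 0.07, not called. EIF1AD, a protein of small-subunit assembly with an eIF1A-like domain, was higher at 56.1, 52.04 and 48.9 CPM in the DSF/Cu libraries, against 43.01, 40.9 and 40.3 CPM in the DMSO libraries. That was a difference of 0.34 ± 0.07 (edgeR adjusted p = 0.0133), lost under total-count scaling, in both FPKM fits and without DMSO replicate 2 or 3.

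eIF5A, which helps the ribosome past difficult stretches, is the protein that carries hypusine, made from 1 lysine. The bases around that lysine, codon 50 with the start codon as 1, are shown for its 3 genes with the codon in capitals, because they show how far the reads of each gene can be told apart.
EIF5A: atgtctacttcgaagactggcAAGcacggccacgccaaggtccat
EIF5AL1: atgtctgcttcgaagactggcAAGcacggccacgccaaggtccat
EIF5A2: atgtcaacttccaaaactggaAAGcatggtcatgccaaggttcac
The EIF5A stretch runs over an intron (chr17:7309762-7311023, plus strand), as does that of EIF5A2 (chr3:170907088-170907680, minus strand), and that of the retrocopy EIF5AL1 does not (chr10:79512776-79512820, plus strand), all on GRCh38 from GENCODE 29. Over the whole coding sequence EIF5AL1 differed from EIF5A at 5 of 465 bases (98.9% identity), and EIF5A2 had 71.6% identity. EIF5A2 had 65.4, 65.1 and 60.3 CPM in the DSF/Cu libraries, against 47.9, 51.4 and 55.8 CPM in the DMSO libraries. It was higher without overlap (0.30 ± 0.08, edgeR adjusted p = 0.0254), but 8 of 13 alternatives lost the call, among them the fits without DSF/Cu replicate 1 or 2 or DMSO replicate 1 or 2, with adjusted p up to 0.283. EIF5A had 652, 622 and 527 CPM in the DSF/Cu libraries, against 716, 673 and 652 CPM in the DMSO libraries. The groups overlapped (-0.18 ± 0.09, edgeR adjusted p = 0.156). It was called lower under total-count scaling and in both FPKM fits. EIF5AL1 was at 0.11 ± 0.08, and the sum of both at -0.16 ± 0.08 (edgeR adjusted p = 0.179). The enzymes of the hypusine modification, DHPS and DOHH, were not called, at -0.22 ± 0.17 and 0.12 ± 0.11.

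Per length, the factors spanned a wide range. The tested members had 0.0909 to 179 FPKM in DSF/Cu and 0.0813 to 229 FPKM in DMSO. EIF5A was the highest in both groups, with 179 ± 16.9 FPKM in DSF/Cu and 229 ± 12.3 FPKM in DMSO, followed by EIF4H with 176 ± 2.97 FPKM in DSF/Cu and 190.5 ± 3.58 FPKM in DMSO. In DSF/Cu these neighbours did not differ beyond their spread. The eIF3 genes lay between 23.1 and 174 FPKM in DSF/Cu and between 15.4 and 150 FPKM in DMSO. EIF3I was the highest of them in both groups. EIF3F was the lowest in DMSO, with 24.5 ± 2.22 FPKM in DSF/Cu and 15.4 ± 0.292 FPKM in DMSO. EIF3J was the lowest in DSF/Cu. By CPM in DMSO, EIF3F at 161.4 was above EIF3J at 89.7 and EIF3G at 153, so its rank by FPKM depends on the length used. The eIF2B genes had medians of 12.9 FPKM in DSF/Cu and 12.6 FPKM in DMSO, and the kinases 7.28 FPKM in DSF/Cu and 10.5 FPKM in DMSO. EIF2S1 had 45.7 ± 0.932 FPKM in DSF/Cu and 50.1 ± 1.87 FPKM in DMSO. EIF2AK1 was the highest kinase at 24.02 ± 1.97 FPKM in DSF/Cu and 26.4 ± 0.9702 FPKM in DMSO, while EIF2AK4 and EIF2AK2 were under 11 FPKM in every group. EIF4EBP1 had 89.6 ± 5.82 FPKM in DSF/Cu and 97.9 ± 3.08 FPKM in DMSO. EIF4E had 5.199 ± 0.726 FPKM in DSF/Cu and 5.59 ± 0.118 FPKM in DMSO. By CPM they were close, with EIF4EBP1 at 98.5 in DSF/Cu and 95.5 in DMSO, and EIF4E at 91.3 and 87.2. The gap in FPKM therefore follows the length given to each gene, which was not checked. FPKM divides by a total that TMM does not use, so small changes differ between both scales, as the sign of EIF4H does.

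**Figure D5:**
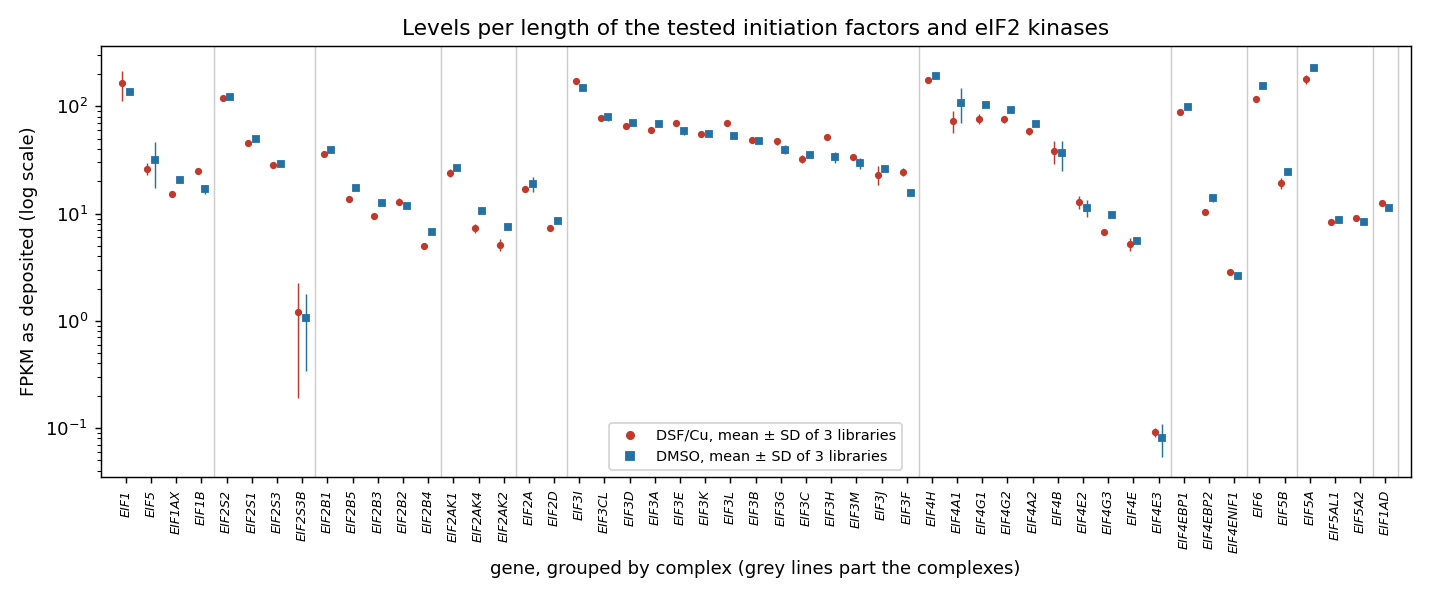
Deposited FPKM on a log axis for the 51 tested genes, grouped by complex, with DSF/Cu left of DMSO and bars for the mean ± SD of 3 libraries. EIF5A, EIF4H and EIF3I are among the highest, at 150 FPKM or more in both groups, and EIF4E3 is the lowest, under 0.1 FPKM.

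Beyond the factors and the regulators of eIF2, the list of other translation genes covered their partners, and over its 58 tested genes 16 were higher (27.6%, beside 18.5% of all genes) and 12 lower (20.7%, beside 16.8% of all genes), with a median of -0.04. That balance turned with the scaling: total counts and both FPKM fits called 11 higher and 24 lower, with medians of -0.226 for total counts and -0.171 and -0.18 for FPKM. All genes turned the same way, with medians of -0.182 for total counts and -0.167 and -0.2 for FPKM. Of all genes, 12.9% were higher and 26.6% lower with total counts. With FPKM 15.6% were higher and 37.7% (pseudocount 1) or 37.3% (pseudocount 0.1) lower. Signalling from mTORC1 to the cap had some of the largest changes. DDIT4 (REDD1), a stress-induced inhibitor of mTORC1, had 269, 246 and 244 CPM in the DSF/Cu libraries, against 52.3, 57.4 and 65.9 CPM in the DMSO libraries. It was 4.33-fold higher (log2 2.11 ± 0.10, edgeR adjusted p = 4.96e-05). TSC1, part of the complex that switches off RHEB, was 2.19-fold higher (1.13 ± 0.07, edgeR adjusted p = 1.61e-04), and so was MKNK2, a kinase of eIF4E (1.13 ± 0.14, edgeR adjusted p = 0.00151). RHEB, the activator of mTORC1, was higher by 0.61 ± 0.06. The subunits of the kinase complex were lower: MLST8 at -0.79 ± 0.10, RPTOR at -0.43 ± 0.06 and MTOR at -0.40 ± 0.08, all without overlap of the groups. TSC2 (-0.15), MKNK1 (0.25), AKT1S1 (0.69), DEPTOR (-0.71) and the S6 kinases RPS6KB1 (0.03) and RPS6KB2 (-0.30) were not called. Of the 13 genes, 4 were higher (30.8%) and 3 lower (23.1%), beside the same 18.5% and 16.8% of all genes.

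Of 10 partners of the cap and the poly(A) tail, 3 were higher (30%) and 4 lower (40%), beside 18.5% and 16.8% of all genes. PDCD4, an inhibitor of eIF4A, had 40.4, 37.3 and 39.1 CPM in the DSF/Cu libraries, against 21.9, 27.4 and 21.2 CPM in the DMSO libraries. It was 1.66-fold higher (0.73 ± 0.11, edgeR adjusted p = 0.00373). PAIP2, which pulls poly(A)-binding protein off the tail, was 1.63-fold higher (0.70 ± 0.08, edgeR adjusted p = 8.57e-04). PAIP1, its stimulatory counterpart, had 72.6, 75.8 and 68.9 CPM in the DSF/Cu libraries, against 101, 102 and 115 CPM in the DMSO libraries. It was 1.46-fold lower (-0.54 ± 0.07, edgeR adjusted p = 0.00212). PABPC1, the main poly(A)-binding protein, was higher by 0.21 ± 0.05, while its relative PABPC4 was lower at -0.52 ± 0.07. ANGEL1, an eIF4E-binding protein, was lower at -0.75 ± 0.22 and CYFIP1, another, at -0.29 ± 0.08. Leaving out 1 library lost the calls of ANGEL1 (any but DSF/Cu replicate 1), CYFIP1 (any but DSF/Cu replicate 3) and PABPC1 (DSF/Cu replicate 2 or DMSO replicate 2 or 3), with edgeR adjusted p up to 0.115 for ANGEL1 and 0.0719 for CYFIP1. LARP1, which holds TOP mRNAs, was at 0.01 ± 0.05, not called.

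Of 7 eIF5 mimics and reinitiation factors, 2 were higher (28.6%) and 1 lower (14.3%), beside 18.5% and 16.8% of all genes. The eIF5 mimics, which compete with eIF5 for eIF2, split: BZW1 was higher by 0.23 ± 0.06 and BZW2 lower at -0.28 ± 0.06. DHX29, a helicase that works with eIF3 on structured mRNAs, was higher by 0.34 ± 0.07, and ABCF1, DDX3X, MCTS1 and DENR were not called, at -0.15 to 0.18. The 8 elongation genes included 2 higher ones (25%) and 1 lower one (12.5%), near the 18.5% and 16.8% of all genes. Higher were EEF2 at 0.37 ± 0.06 and EEF1A1 at 0.26 ± 0.04. EEF2K, the kinase that inhibits eEF2, was lower at 17.9, 15.7 and 17.3 CPM in the DSF/Cu libraries, against 27.4, 22.6 and 26.4 CPM in the DMSO libraries. That was 1.498-fold lower (-0.58 ± 0.11, edgeR adjusted p = 0.00656). EEF1A1, PABPC1, BZW1, DHX29 and PPP1CB lost their call under total-count scaling, and BZW1 also without DSF/Cu replicate 1 or 2 or DMSO replicate 1 or 3, with edgeR adjusted p for BZW1 up to 0.555 over these fits. Of 3 tested termination and recycling genes 1 was higher (33.3%, beside 18.5% of all genes). This was ETF1, which reads stop codons, at 0.40 ± 0.05 (edgeR adjusted p = 0.00137), and GSPT1 (-0.22) and ABCE1 (-0.05) were not called. The mitochondrial initiation factors MTIF2 and MTIF3 were at -0.18 ± 0.07 and -0.04 ± 0.10, not called.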

How the data were processed

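Poly(A) RNA was sequenced as paired-end reads, in 3 libraries of MDA-MB-231 cells in DSF/Cu and 3 in DMSO. The table, deposited by the authors, gives for each of 58825 genes a whole-number count and an FPKM value per library. The columns headed count hold whole numbers and were taken as raw counts, which the headers do not state. Columns headed Control were taken as DMSO, the vehicle group of the labels. The deposited FPKM values are fragments per kilobase of gene, scaled to the library, per the file headers, and stand at 0.0001 where a count is 0. The submitters' processing notes list, with no role for any tool, StringTie 1.3.0, HISAT2 2.0 and Bowtie 0.12.2, and a mouse build, mm8. The genes are human: all 54 factor IDs occur in GENCODE 29, 26 of them with the same start and end, so coordinates are read as GRCh38. Neither counter nor strand setting is named in the labels or headers. For 14 factors, another gene overlaps with at least 10% as many counts (2 on the same strand, 13 on the opposite strand, EIF4EBP3 with both), so those counts are uncertain.

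Genes were kept by filterByExpr (18229), scaled by TMM, and tested in edgeR 4.0.16 (R 4.3.3) by its quasi-likelihood F test, DSF/Cu over DMSO, at a common dispersion of 0.0757, with no replicate block. Benjamini-Hochberg adjusted p-values cover all genes tested, and under 0.05 made a call. The SE was taken as the size of the log2 fold change divided by the root of F. The steps were tested on simulated data. Alternatives were total-count scaling, RLE size factors, DESeq2 1.42.0, no filter on low counts, a replicate block, leaving out each library, and limma 3.58.1 on log2(FPKM + 1) or log2(FPKM + 0.1) at a mean FPKM of at least 1. Sums over overlapping or near-identical genes were added after seeing the data. Libraries of a group differed by far more than sampling noise (chi-square per degree of freedom 49.8 to 63.0), so none is a copy. A count of 0 allows up to 3 counts, and this floor covers counting error only. Coding sequences came from GENCODE 29 and start regions from RefSeq, where 45 of the 54 factors had an entry, and were compared with Biopython 1.88.

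Named in full were EIF2S1, EIF2AK1, EIF2AK2, EIF2AK4, EIF1, EIF4E, EIF4A1, EIF4G1, EIF4EBP1 and EIF5, and the 3 called members of each complex with the largest absolute change, other members by fold change or range, and of the other translation genes up to 3 called per group. Further genes of those groups, and overlapping genes, were named after their values were seen. The members, complexes and lists were chosen with earlier results of these data known.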

Additional observations from a re-analysis of the deposited data

How the results depend on the processing

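TMM factors were 0.916 to 0.952 in DSF/Cu and 1.06 to 1.08 in DMSO, so total-count scaling and FPKM, which leave them out, shift log2 fold changes down. With 3 libraries in each group, changes of the size of EIF2B2 or EIF4G1 sit at the threshold. Of the 19 called factors, 8 were called under every alternative and 11 lost the call under at least 1, 10 of these in a fit that left out 1 library and 6 under total-count scaling, and no called factor changed sign. The cause of each change below was not tested.

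With total-count scaling, calls over all genes became 2356 higher (12.9%) and 4856 lower (26.6%), and the factors 6 higher and 18 lower. With FPKM in limma, 1802 (pseudocount 1) or 1803 (pseudocount 0.1) of all genes were higher (15.6%) and 37.7% or 37.3% lower. Of the factors, 6 were higher and 17 lower. In all 3 of these fits lower calls numbered 3 in eIF2B, 1 for the alternative initiator tRNA factors, 1 in eIF3, 5 in the eIF4F group, 2 for subunit joining and eIF6, 1 for eIF5A and 24 among other translation genes, and 0 genes of eIF2B, the eIF4E-binding proteins and eIF5A were higher. Total-count scaling also called 1 eIF2 gene lower, EIF2S1 at -0.147 against 0.04 with TMM. EIF4H turned to -0.130 with total counts and -0.115 in both FPKM fits, and LARP1 to -0.172 with total counts and to -0.153 and -0.156 with FPKM. A change of sign is given only where the gene was called on one of the 2 sides.

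Medians under total-count scaling were -0.182 for all genes, -0.123 for the factors, -0.0129 for start codon selection, -0.0392 for eIF2, -0.354 for eIF2B, -0.539 for the eIF2 kinases, 0.0865 for eIF3, -0.187 for the eIF4F group, -0.142 for the eIF4E-binding proteins, -0.0753 for eIF5A and -0.226 for other translation genes. With FPKM and a pseudocount of 1 they were, for the same sets, -0.167, -0.112, 0.0194, -0.025, -0.321, -0.471, 0.0989, -0.229, -0.128, -0.0535 and -0.171, and with a pseudocount of 0.1 -0.2, -0.113, 0.0182, -0.0314, -0.34, -0.524, 0.102, -0.232, -0.129, -0.0589 and -0.18.

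DESeq2 called 18 factors higher, among them 10 of eIF3, 2 of eIF2 and 1 of the eIF4F group, and 11 lower, among them 3 of eIF2B and 2 of subunit joining and eIF6, with a median of 0.0147 over all genes. Of all genes, DESeq2 called 24% higher and 21.7% lower. RLE size factors called 1 eIF2 gene higher (18.9% of all genes), with a median of 0.0146 over all genes. Without the filter on low counts 0 genes of eIF2B and of the eIF4E-binding proteins were higher, and the medians were 0.085 for all genes and -0.0718 for other translation genes.

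The labels do not say whether the replicate numbers pair the samples. Deviations from the group means of same-numbered libraries correlated at 0.021, -0.008 and 0.044, and not every library correlated best with its own number. With 3 libraries in each group these values cannot exclude a shared day or culture. With the replicate block 0 genes of eIF2B, the eIF4E-binding proteins and eIF5A were higher, 1 of the eIF4F group (EIF4E2) was higher, 0 of the eIF4E-binding proteins and 0 of subunit joining and eIF6 were lower, and the median of all genes was -0.00378.

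Leaving out 1 library gave 7 to 11 factors higher and 2 to 5 lower, beside 12 and 7 with all libraries. Over all genes these fits called 2786 to 2953 higher and 2284 to 2550 lower, beside 3365 and 3059 with all libraries. Higher calls ranged from 1 to 2 for start codon selection, 0 to 1 for eIF2B, 0 to 0 for the eIF4E-binding proteins and 0 to 1 for eIF5A. Lower calls ranged from 0 to 1 for start codon selection, 0 to 1 for eIF2B, 1 to 2 for the eIF2 kinases, 1 to 2 for the eIF4F group, 0 to 1 for the eIF4E-binding proteins and 0 to 1 for subunit joining and eIF6. Medians ranged from 0.0067 to 0.018 for all genes, 0.105 to 0.353 for start codon selection, 0.048 to 0.164 for eIF2 and -0.0782 to -0.0163 for other translation genes.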
